A study of Rattus norvegicus with 15 samples.

Results

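Ldha and Pgk1, a pair of genes of glycolysis, were followed through the stages of enamel formation in the rat incisor. They were measured with 3 probes of a long non-coding RNA array: A_44_P210461 and CUST_6_PI421900130 for Ldha, and CUST_2_PI421900130 for Pgk1. These probes were chosen by name, as the array's probes for these 2 genes, out of 39 probes that named 38 genes. The array held 38321 probes in all, most of them with only an identifier of its maker.

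The tissue was the enamel organ, the epithelium that makes enamel, of the mandibular incisor of 4-week-old Wistar Hannover rats. It was taken at the cervical loop, where the progenitors of the enamel-forming cells lie, in the secretory stage, when ameloblasts lay down the protein matrix, and in the maturation stage, when ameloblasts degrade the matrix and supply mineral. Each stage had 5 samples, and each of the 15 samples was hybridized to its own one-colour array. The series design gives 5 rats for the 15 samples, so samples must share rats and are not all independent. Whether arrays of different stages with the same replicate number share a rat is not stated, and no block for the rat was used. The p-values therefore measure the spread between these samples. The labels name no genotype or treatment. Stage was taken from the tissue label. In 8 of the 15 arrays the title has secretory for maturation or maturation for secretory, so every result below for these 2 stages rests on the tissue label. None of the 21 genes listed as markers of ameloblasts and neighbouring cell types was among the array's named genes, so the tissue and stage labels could not be checked against markers. In whole tissue, fewer cells of a type and less RNA per cell cannot be told apart.

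Glycolysis splits glucose into pyruvate. Phosphoglycerate kinase, encoded by Pgk1, moves a phosphate from 1,3-bisphosphoglycerate to ADP and so makes ATP. The A subunit of lactate dehydrogenase, encoded by Ldha, turns pyruvate into lactate and restores the NAD+ that the upper steps of the pathway use. Both genes are textbook targets of the hypoxia-inducible transcription factors, and Pgk1 is often used as a reference gene for normalization. Of the 36 genes listed for glycolysis and lactate handling, the array named only these 2, so what follows describes a pair of enzymes and not the pathway.

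The promoter of Ldha is shown for its sequence. Only 1 of the 2 genes had an entry in the RefSeq promoter table, so the promoters of Ldha and Pgk1 could not be compared. The 250 bases before the Ldha start lie on the + strand of GRCr8 at chr1:106507842-106508091. Capitals mark matches, on either strand, to ACGTG and GCGTG, the core letters of a hypoxia response element, and to TGACGTCA, the cAMP response element.
Ldha: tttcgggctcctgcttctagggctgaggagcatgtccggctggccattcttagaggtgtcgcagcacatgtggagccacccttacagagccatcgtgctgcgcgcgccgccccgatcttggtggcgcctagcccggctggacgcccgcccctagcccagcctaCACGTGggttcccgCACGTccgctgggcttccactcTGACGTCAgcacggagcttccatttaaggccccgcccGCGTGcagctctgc
ACGTG matched 3 times, of which 2 overlap in a palindrome, and 16.6% of 33469 rat promoter windows of the same length held it. GCGTG matched once and was held by 25.9% of the windows. TGACGTCA matched once and was held by 1.59% of the windows. The GC box GGGCGG, not marked in the sequence, matched 3 times and occurred in 30.5%, and TATAAA had no match in Ldha and occurred in 12.9%. These are matches of letters and show no binding.

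All 3 probes gave strong signals. On every array each was well above background, with mean processed signals of 2481 to 25651 for A_44_P210461, 16253 to 122277 for CUST_6_PI421900130 and 7122 to 40551 for Pgk1, against a local background of at most 29. No spot was saturated. Each array carried 10 spots of A_44_P210461 and 30 spots of each other probe. The median coefficient of variation between spots of an array was 5.03%, 4.82% and 5.69% in that order. The standard error that the spots leave on an array's log2 value was at most 0.046, and smaller than the spread between arrays of a stage. Over all probes, arrays of 1 stage correlated at 0.974 to 0.995 and arrays of different stages at 0.920 to 0.964.

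Levels are given as log2 of the processed signal over the array's 75th percentile. Such a level cannot be set against another probe's, since probes differ in how strongly they bind. All 3 probes had the same order of stages: lowest in the secretory stage, intermediate in the cervical loop and highest in maturation. No probe's values overlapped between any pair of stages. How many of all probes tested also did not overlap was not counted, so this separation is not read as particular to the 3 probes.

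Pgk1, the enzyme of the ATP-making step, read 4.98, 4.96, 4.92, 5.25 and 5.38 in cervical loop replicates 1 to 5. The secretory replicates read 4.49, 4.62, 4.59, 4.74 and 4.57, and the maturation replicates 6.15, 6.36, 6.26, 6.17 and 5.92. The maturation arrays thus stood clear of the others, while the lowest cervical loop array was only slightly above the highest secretory array. The stage means were 5.10 ± 0.20, 4.60 ± 0.090 and 6.17 ± 0.16 (SD, n = 5 each). Cervical loop replicates 4 and 5 were the highest of their stage.

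Ldha, the enzyme of the lactate step, read 6.53, 6.48, 6.34, 6.72 and 6.69 in the cervical loop by probe CUST_6_PI421900130. In the secretory stage this probe read 5.69, 5.66, 5.78, 5.67 and 5.51, and in maturation 7.85, 7.95, 8.01, 7.78 and 7.69. The stages were well apart on this probe, with means of 6.55 ± 0.16, 5.66 ± 0.098 and 7.86 ± 0.13 (SD, n = 5 each). By probe A_44_P210461, Ldha read 4.48, 4.27, 4.28, 4.17 and 4.29 in the cervical loop, 2.93, 2.68, 3.29, 3.07 and 2.82 in the secretory stage, and 5.54, 5.31, 5.63, 5.41 and 5.48 in maturation. Its means were 4.30 ± 0.11, 2.96 ± 0.23 and 5.47 ± 0.12. The secretory arrays varied most on this probe, and replicate 3 was the highest of them, yet below every cervical loop array.

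**Figure D1:**
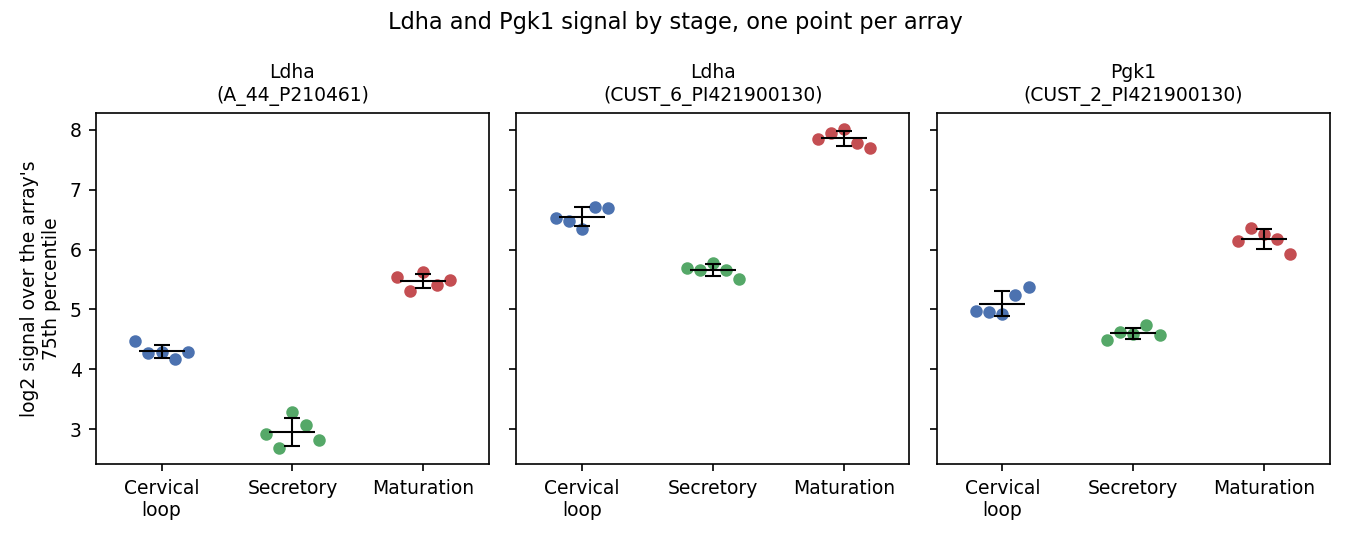
Level of each probe on each array (y axis, log2 signal over the array's 75th percentile) by stage (x axis), with 5 arrays per stage in replicate order; horizontal bars are means and error bars SD. Every secretory point lies below every cervical loop point of the same probe, and every maturation point lies above both.

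The step from the secretory to the maturation stage asks what changes when ameloblasts pass from laying down matrix to mineralizing it. Both genes rose. Ldha was 5.73-fold higher in maturation by A_44_P210461, a log2 difference of 2.52 (95% interval 2.26 to 2.78, limma adjusted p = 3.8e-10). By CUST_6_PI421900130 Ldha was 4.59-fold higher, a log2 difference of 2.20 (1.96 to 2.43, adjusted p = 4.25e-10). Pgk1 was 2.97-fold higher, a log2 difference of 1.57 (1.31 to 1.83, adjusted p = 3.58e-08). These were 3 calls of 3 probes where 59.5% of the 28845 probes tested were called in either direction, 25.1% were called higher and 10.1% at least 2-fold higher. In size, 1.44%, 2.06% and 4.65% of all probes tested had a difference at or above that of A_44_P210461, CUST_6_PI421900130 and Pgk1. The median over all probes was -0.12.

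Scans, as numbered from the file headers, held only 1 stage each, except scan 2 with maturation replicate 5 and secretory replicates 1 to 3. With scan as a fixed block over the 10 arrays of these stages, the maturation minus secretory difference was 2.52 for A_44_P210461 (adjusted p = 0.000156), 1.98 for CUST_6_PI421900130 (6.07e-05) and 1.35 for Pgk1 (0.00046). Within scan 2 alone the differences were the same, with adjusted p = 0.00906, 0.00789 and 0.0224. The values of both fits rest on 1 maturation array, replicate 5, which is assumed to vary like the others and has no replicate within its scan. For the other arrays of these 2 stages the scan and the stage cannot be told apart. All cervical loop arrays were scanned on a day of their own, so for the comparisons with the cervical loop the stage and the scan day cannot be told apart.

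From the cervical loop to the secretory stage both genes fell. Ldha was 2.54-fold lower in the secretory stage by A_44_P210461, a log2 difference of -1.34 (95% interval -1.61 to -1.08, limma adjusted p = 3.15e-07). By CUST_6_PI421900130 it was 1.85-fold lower, at -0.89 (-1.12 to -0.66, adjusted p = 6.48e-06). Pgk1 was 1.41-fold lower, at -0.50 (-0.75 to -0.24, adjusted p = 0.00254). Here 58.1% of the probes tested were called in either direction, 36.7% were called lower and 15.4% at least 2-fold lower, and 8.78%, 18.9% and 34.6% had a difference at or below that of A_44_P210461, CUST_6_PI421900130 and Pgk1. A fall as large as that of Pgk1 was thus common on the array. The median over all probes was -0.19, and with each array scaled to its median in place of its 75th percentile the Pgk1 difference was -0.27 and was not called (adjusted p = 0.107).

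Maturation was also above the cervical loop for both genes. Ldha was 2.26-fold higher by A_44_P210461, a log2 difference of 1.17 (95% interval 0.91 to 1.44, limma adjusted p = 9.66e-07), and 2.48-fold higher by CUST_6_PI421900130, at 1.31 (1.07 to 1.54, adjusted p = 9.49e-08). Pgk1 was 2.11-fold higher, at 1.08 (0.82 to 1.33, adjusted p = 1.93e-06). In this comparison 63.3% of the probes tested were called in either direction, 20.6% were called higher and 8.27% at least 2-fold higher. The differences of the 3 probes were alike in size, and 6.60%, 5.59% and 7.50% of all probes were at or above them. The median over all probes was -0.28.

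The share of called probes that were higher depended on the scaling. From secretory to maturation it was 42.2% with the 75th percentile, 57.8% with median scaling and 22.2% with scaling to 7 other reference genes. Against the cervical loop it moved from 36.8% to 53.8% with median scaling for the secretory stage, and from 32.5% to 61.8% for maturation. Scaled to the 7 reference genes, a setting added after the data were seen, Ldha rose by 2.18 and 1.86 and Pgk1 by 1.23 from secretory to maturation. All 9 differences of the 3 probes kept their direction under that scaling and were called. Under it 15010 of the 28845 probes tested were called for secretory minus cervical loop. For maturation minus secretory 17998 were called, and for maturation minus cervical loop 18983.

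**Figure D2:**
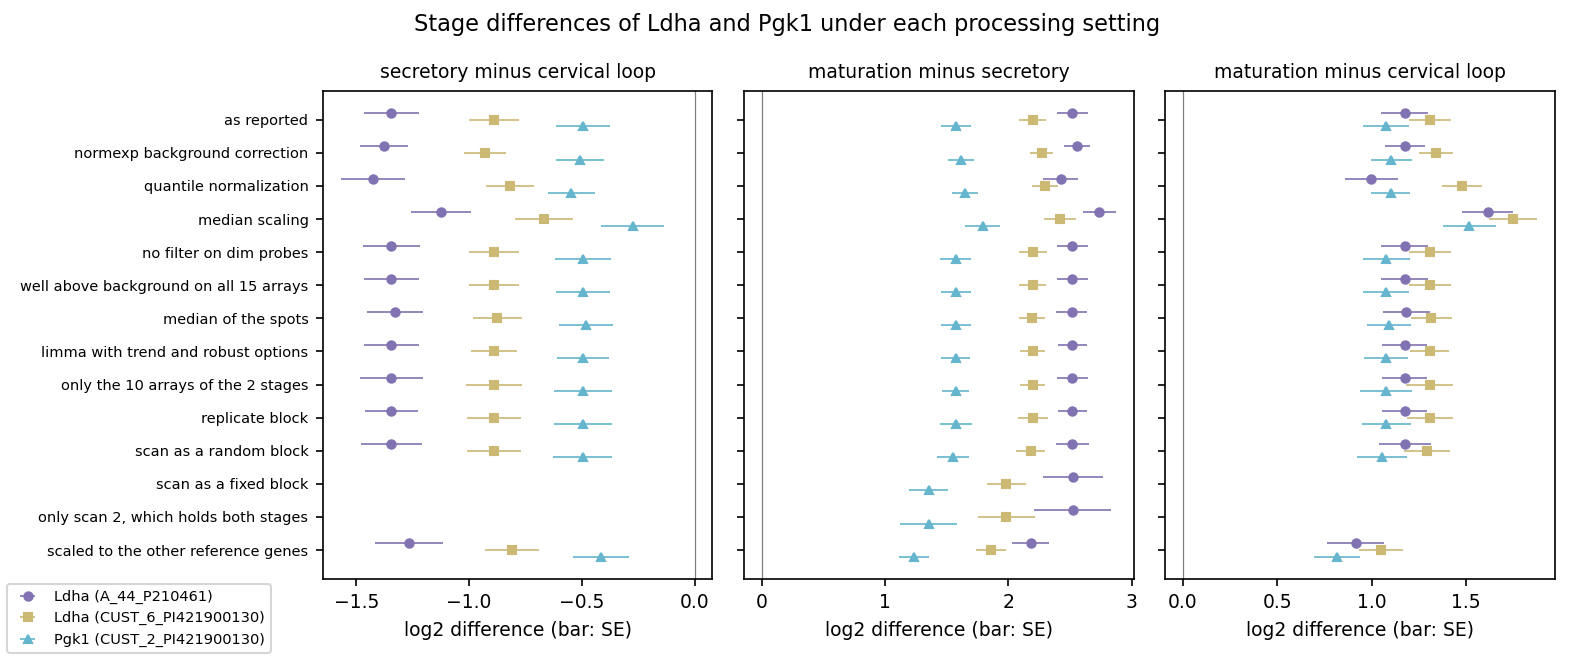
Log2 difference of each probe (x axis, bars are standard errors) under each processing setting (y axis), in 1 panel per comparison, all with stages from the tissue label; stages from the titles, under which the differences reverse, are not drawn. Every point drawn keeps the sign of the reported value. Filters, limma options, the replicate block and fits of 2 stages alone repeat the reported difference, so their points could not change sign. The smallest point in size is that of Pgk1 in the secretory stage against the cervical loop under median scaling, -0.27.

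Whether the probes of Ldha and Pgk1 moved by the same amount was tested on their difference within each array. There the scaling by a percentile cancels. The 3 pairs of probes and 3 comparisons gave 9 exact two-sided permutation tests, adjusted together by Benjamini-Hochberg; with 5 arrays against 5 the smallest possible p is 0.00794. Ldha by CUST_6_PI421900130 minus Pgk1 was 1.55, 1.52, 1.42, 1.47 and 1.31 in the cervical loop, 1.20, 1.05, 1.19, 0.93 and 0.94 in the secretory stage, and 1.71, 1.59, 1.75, 1.61 and 1.78 in maturation. The stages did not overlap, and the difference was smallest in the secretory stage and greatest in maturation. The signal of this Ldha probe fell by 0.39 more than that of Pgk1 from cervical loop to secretory stage, a ratio of 1.31-fold. It rose by 0.63 more from secretory to maturation, a ratio of 1.54-fold, and was 0.23 higher relative to Pgk1 in maturation than in the cervical loop, a ratio of 1.17-fold; with quantile normalization this last difference was 0.38. Each of these had exact p = 0.00794 and adjusted p = 0.0143. The 2 probes of Ldha itself changed against each other by -0.45 from cervical loop to secretory stage and by 0.32 from secretory to maturation. A gap between an Ldha probe and the Pgk1 probe is therefore not shown to be a gap between the genes.

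The other Ldha probe gave the same direction for the changes into and out of the secretory stage. A_44_P210461 minus Pgk1 was -0.50, -0.69, -0.63, -1.07 and -1.09 in the cervical loop, -1.57, -1.94, -1.30, -1.67 and -1.75 in the secretory stage, and -0.61, -1.04, -0.64, -0.77 and -0.43 in maturation. The secretory arrays lay below all others. The Ldha signal fell by 0.85 more than that of Pgk1, and then rose by 0.95 more (each exact p = 0.00794, adjusted p = 0.0143). Between maturation and cervical loop the arrays overlapped and the change was 0.10 (exact p = 0.556). The larger relative change of Ldha over Pgk1 between these 2 stages was therefore seen with 1 of the 2 Ldha probes.

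The 2 Ldha probes differed from each other in the size of the secretory dip. A_44_P210461 minus CUST_6_PI421900130 was -2.05, -2.21, -2.06, -2.54 and -2.40 in the cervical loop, -2.76, -2.98, -2.49, -2.60 and -2.69 in the secretory stage, and -2.31, -2.64, -2.39, -2.37 and -2.21 in maturation. The secretory mean was the lowest, but its arrays overlapped with both other stages. From cervical loop to secretory stage the difference between probes changed by -0.45 (exact p = 0.0159, adjusted p = 0.0238), and from secretory to maturation by 0.32 (exact p = 0.0238, adjusted p = 0.0306). The second of these did not pass with quantile normalization (0.13, adjusted p = 0.402) nor, at an adjusted p of 0.0612, without any 1 of 7 of the 10 arrays: secretory replicates 1, 2 and 5 and maturation replicates 1, 3, 4 and 5. Between maturation and cervical loop the change was -0.13 and was not called (exact p = 0.310, adjusted p = 0.348), whereas quantile normalization gave -0.48 (adjusted p = 0.0204). Both probes are named for Ldha through their accessions. Which stretch of the transcript each one reads was not analysed here.

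**Figure D3:**
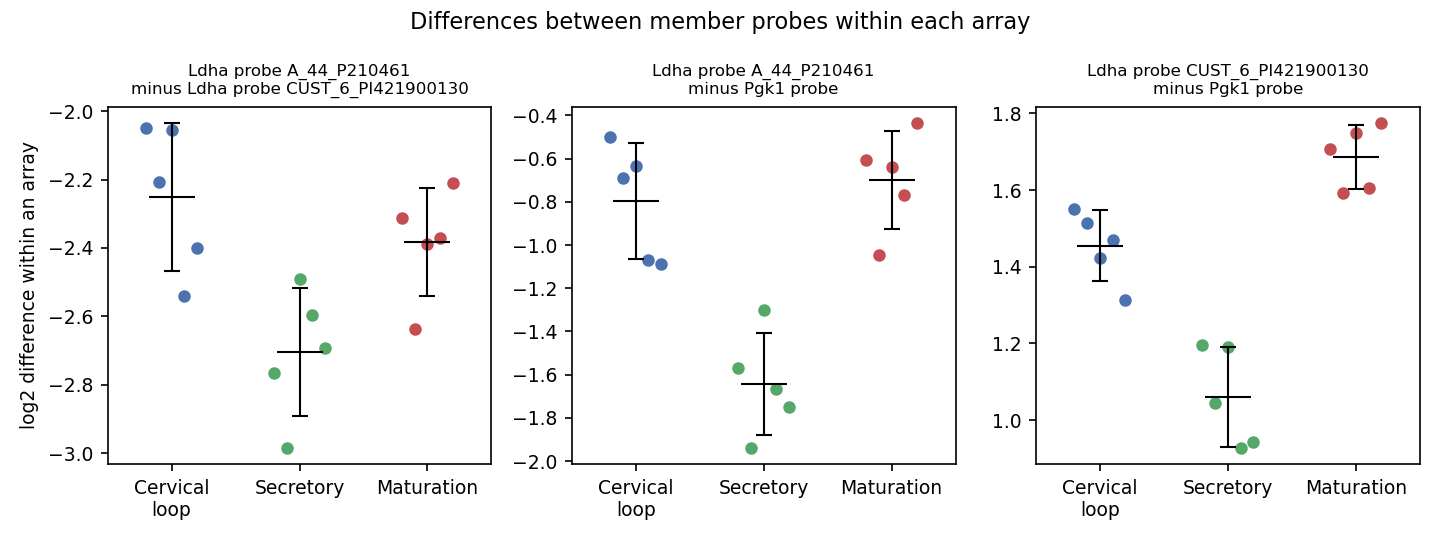
Log2 difference between 2 probes on the same array (y axis) by stage (x axis), 1 point per array, with mean and SD; each panel has its own y scale. In the panels of Ldha minus Pgk1 the secretory points lie below all others, while the 2 Ldha probes overlap between stages.

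The named genes with the profile most like that of each probe were then listed. Likeness was measured as the root-mean-square difference between 2 profiles over the 15 arrays, each minus its own mean, in log2 units and without a test. For Ldha by CUST_6_PI421900130 the nearest of 36 other genes were Pgk1 at 0.274, the purine salvage enzyme gene Hprt1 at 0.345 and the inflammasome gene Nlrp3 at 0.479; the other Ldha probe was at 0.255 and a flat profile at 0.910. For A_44_P210461 the same 3 genes were nearest, at 0.478, 0.492 and 0.540, with a flat profile at 1.04. Nlrp3 was dim, well above background on 0 of 5 secretory and 3 of 5 cervical loop arrays, and its maturation minus secretory difference of 1.47 was -0.17 with normexp (adjusted p = 0.193), so its distance and place in the order are uncertain. For Pgk1 the nearest genes were Ldha by CUST_6_PI421900130 at 0.274, the nuclear export factor gene Cse1l at 0.297 and Pdcd10, which encodes a kinase-binding adaptor protein, at 0.359, with a flat profile at 0.672. Ldha by A_44_P210461 was farther from Pgk1 than these, at 0.478.

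Hprt1 shared the rise into maturation but not the secretory dip at the threshold. It differed by 2.20 from secretory to maturation (limma adjusted p = 7.79e-10), and by -0.23 from cervical loop to secretory stage (adjusted p = 0.106; -0.32 and 0.0192 with quantile normalization). Cse1l rose by 1.07 (adjusted p = 1.25e-05) and Pdcd10 by 0.91 (4.43e-05) from secretory to maturation. These 3 rises were also called with median scaling, quantile normalization and normexp background correction. From cervical loop to secretory stage Cse1l was called lower, at -0.44 (limma adjusted p = 0.0148), but not with median scaling (-0.22, adjusted p = 0.227). Pdcd10 was not called there (-0.11, adjusted p = 0.491). Both Cse1l and Pdcd10 were called higher in maturation than in the cervical loop, at 0.63 and 0.80 (limma adjusted p = 0.00119 and 0.000126).

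Many probes with no gene name were closer than these. To Pgk1, 141 unnamed probes were nearer than Ldha by CUST_6_PI421900130 and 2319 nearer than Ldha by A_44_P210461. Pgk1 in turn had 41 unnamed probes nearer than itself to CUST_6_PI421900130 and 248 to A_44_P210461. ASRNV20000995 was the nearest of all to Ldha by A_44_P210461, at 0.0802. Its levels were 2.73 ± 0.11 in the cervical loop, 1.42 ± 0.28 in the secretory stage and 3.95 ± 0.11 in maturation (SD, n = 5 each). In all, 11 unnamed probes were nearer to A_44_P210461 than the other Ldha probe was. For Pgk1 the nearest was ASRNV20036404 at 0.128, with levels of 5.70 ± 0.18, 5.33 ± 0.22 and 6.90 ± 0.18.

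**Figure D4:**
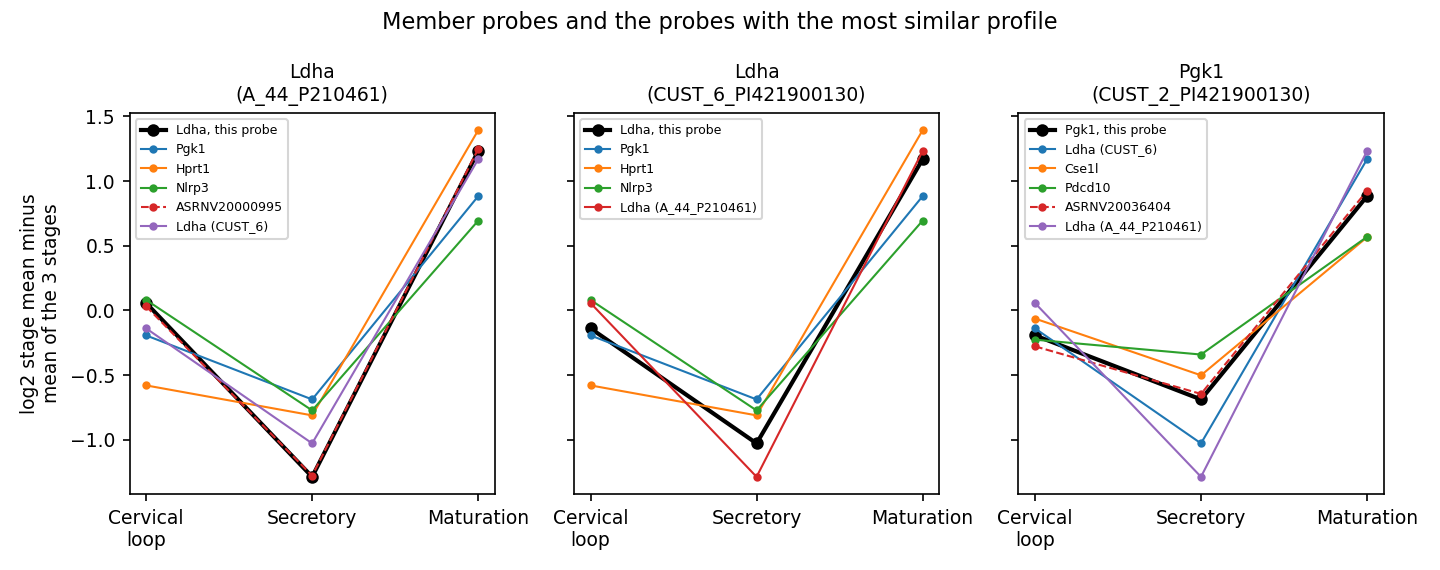
Stage means of each probe (thick black line) and of those most like it, each minus its mean over the 3 stages (y axis, log2) by stage (x axis); dashed lines are probes with no gene name. ASRNV20000995 runs along Ldha probe A_44_P210461, whereas Hprt1 lies lower in the cervical loop and higher in maturation.

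Pgk1 and Ldha were also among 9 of 15 listed reference genes that the array named. Of the other 7, in maturation against the secretory stage, 3 were called higher (B2m, Hprt1 and Sdha), 1 lower (Rplp1) and 3 were not called, with a median of 0.31. B2m and Sdha were not called with quantile normalization, and Actb, at 0.31 (adjusted p = 0.0834), was called with median scaling (0.53) and normexp (0.37). From cervical loop to secretory stage 1 of the 7 was called lower, Actb at -1.19 (adjusted p = 7.62e-06), 2 higher (Rplp1 and Sdha) and 4 were not called. Rplp1 was not called there with quantile normalization or normexp, under which Rpl13a was called lower. Against the cervical loop, maturation had Hprt1 and Sdha called higher and Actb, Rpl13a and Rplp1 lower. There Rpl13a and Rplp1 turned to 0.04 and 0.11 and were not called with median scaling, Rpl13a was not called with quantile normalization, and B2m was called higher with median scaling and normexp. Over all 35 named genes tested other than Ldha and Pgk1, 22 were called higher in maturation than in the secretory stage and 2 lower. Their median difference was 0.41. Over all probes tested, 25.1% were called higher and the median was -0.12. The shares of all probes given above are therefore not shares of named genes. A rise larger than that of Ldha by CUST_6_PI421900130 was measured for 4 of the 35 named genes, Enpp1, Gdnf, Hprt1 and Ptk2b. Of these Hprt1 was at 2.20 as well, and Gdnf was well above background on 2 of 5 secretory arrays.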

How the data were processed

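Total RNA was amplified and labelled with Cy3, per the labels' protocols. Agilent Feature Extraction 11.0.1.1 is the image software named in the submitters' processing notes. The deposited scanner files hold spot intensities on a linear scale, a processed signal with background subtracted, and flags that mark a spot as well above background, saturated or non-uniform, per the file headers. A series table of log2 values, deposited by the authors, holds none of the 3 probes.

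Control spots were left out, as were outlier spots among the rest (107 to 276 an array). Spots of a probe were averaged, and log2 minus the array's 75th percentile was taken. Tests covered the 28845 probes with at least 50% of their spots well above background on each of the 5 arrays of some stage. A single limma fit (version 3.58.1, R 4.3.3) without a block covered all 15 arrays, with Benjamini-Hochberg adjustment and a threshold of 0.05. Differences between probes were tested by exact permutation with scipy 1.17.1 in Python 3.11.15. The fit was tested on simulated data. Normexp correction (offset 50) used the median spot signal, since the mean signal is not a column of these files. Accessions were named through RefSeq (GRCr8, names only): 39 of 62 matched. The number of arrays limits the precision.

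The 2 genes, the gene lists and the tests were chosen with earlier results of these data known. The text names the 3 probes, listed glycolytic genes on the array, Actb, and for each probe the 3 named genes of smallest root-mean-square difference in profile, with at most 1 unnamed probe per gene. Reference genes called, and named genes with a larger rise than Ldha, were named after their values were seen. Scaling to other reference genes was added after seeing the data.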

Additional observations from a re-analysis of the deposited data

How the results depend on the processing

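Apart from the stages in the titles and leaving out arrays, 104 of 105 alternative values of the 3 probes kept their direction and call; the exception is Pgk1 between secretory stage and cervical loop with median scaling (-0.27). Leaving out each array in turn gave 210 values over 21 results, with counts of probes called and 2 uncalled changes among them. The call ended in 7, all among the 10 for the change between the Ldha probes from secretory to maturation (0.25 to 0.38). Without 1 array, 2 uncalled changes from cervical loop to maturation moved by over 1.5 times. The Ldha probes gave -0.21 without cervical loop replicate 4 to -0.07 without maturation replicate 2. A_44_P210461 minus Pgk1 gave 0.025 without cervical loop replicate 5 to 0.18 without maturation replicate 2. With quantile normalization these 2 were -0.48 (called) and -0.10, and the Ldha probes' secretory to maturation change was 0.13 (not called). The cause was not tested. Probes called from secretory to maturation were 17163 as reported, 8086 with scan as a fixed block, over 10 arrays, and 3394 within scan 2, over 4 arrays.

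With stages from the titles, which exchange 8 arrays, every difference of the 3 probes turned and none was called. In the order A_44_P210461, CUST_6_PI421900130 and Pgk1, secretory minus cervical loop was 0.65, 0.87 and 0.75, maturation minus secretory -1.47, -1.33 and -0.91, and maturation minus cervical loop -0.82, -0.46 and -0.16. Probes called by limma were 0 from secretory to maturation (7183 at an unadjusted p under 0.05) and 11590, against 18249, for maturation minus cervical loop. The change between the Ldha probes was -0.22 (secretory minus cervical loop) and -0.14 (maturation minus secretory). For A_44_P210461 minus Pgk1 the 3 changes were -0.094, -0.56 and -0.66, and for CUST_6_PI421900130 minus Pgk1 0.13, -0.42 and -0.29.

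Whether replicate numbers pair the arrays is not settled. Deviations from the stage means correlated above 0.1 in 8 of 15 same-numbered pairs (median 0.11, range -0.11 to 0.29) and in 6 of 60 pairs of different number (median -0.05), and 9 of 15 arrays correlated best with an array of their own number, a hint from the data and not from the labels. Since not every same-numbered pair passed 0.1, they were not used as pairs. With the replicate number as a block, all 9 differences of the 3 probes stayed called, and 17134, 17561 and 18475 probes were called against 16764, 17163 and 18249. In an exact permutation test with signs exchanged within numbers, where 5 pairs cannot go below p = 0.0625, the 7 called changes between probes (-0.45 and 0.32 for the Ldha probes, -0.85 and 0.95 for A_44_P210461 minus Pgk1, -0.39, 0.63 and 0.23 for CUST_6_PI421900130 minus Pgk1) all had adjusted p = 0.0804.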

Other observations

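Pdk3 was the array's other named gene next to the lactate step. It was chosen after its values were seen, because pyruvate dehydrogenase kinases inhibit pyruvate dehydrogenase, an enzyme that uses pyruvate. It rose by 0.40 from secretory to maturation (limma adjusted p = 0.0367), where 26.9% of the probes tested had a difference at or above it and 25.1% were called higher. It was also called with median scaling (0.62, adjusted p = 0.00315), quantile normalization (0.41, 0.0344) and normexp (0.31, 0.0316). Its differences of -0.13 from cervical loop to secretory stage (adjusted p = 0.493) and of 0.27 from cervical loop to maturation (adjusted p = 0.14) were not called; the latter was with median scaling (0.71, adjusted p = 0.000975).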
